A study of Schizosaccharomyces pombe
Saccharomyces cerevisiae with 8 samples.

Results

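The citric acid cycle enzyme genes of budding yeast (Saccharomyces cerevisiae) described here are 10 genes chosen by their systematic identifiers. They are CIT1 (YNR001C), ACO1 (YLR304C), IDH1 (YNL037C), IDH2 (YOR136W), KGD1 (YIL125W), KGD2 (YDR148C), LSC1 (YOR142W), LSC2 (YGR244C), FUM1 (YPL262W) and MDH1 (YKL085W). They are 10 of the 6808 genes listed in either deposited table, and every one of them is listed in both. The rule that chose them uses no measured value, but earlier results of these data were known when they were chosen. In the sacCer3 build they lie on chromosomes IV, VII, IX, XI, XII, XIV, XV and XVI, each annotated as protein coding, with coding lengths of 990 to 3045 bases.

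All libraries came from 1 MATalpha strain, GZY364, with deletions in ADE2, HIS3, LEU2, LYS2, MET15, TRP1 and URA3. It expresses the rice F-box protein OsTIR1 from the GPD1 promoter at HIS3, and its SUA7 gene ends in a 3V5-IAA7 tag, so auxin directs the tagged Sua7 protein to degradation. Sua7 is TFIIB, a general initiation factor of RNA polymerase II. Cells growing in YPD received 500 µM auxin (3-indole acetic acid) or its carrier DMSO for 30 min, then 5 mM 4-thiouracil for 6 min, and S. pombe cells were mixed in before RNA extraction. Total RNA was sequenced after auxin and after DMSO, as was newly synthesized RNA (nsRNA), the purified 4-thiouracil-labelled part, with 2 biological replicates in each of the 4 groups. Every group carries the degron and OsTIR1, and auxin given to cells without the degron was not analysed here.

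The citric acid cycle, in the mitochondrial matrix, oxidizes the acetyl group of acetyl-CoA to carbon dioxide and passes the electrons to NADH and to succinate dehydrogenase. Yeast fermenting glucose needs little of this oxidation, but uses the first steps to make 2-oxoglutarate for glutamate. The Rtg proteins are known to maintain CIT1, ACO1, IDH1 and IDH2 when respiration is impaired, and the Hap2/3/4/5 complex activates many genes of the cycle and of respiration.

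Total counts were 1291241 and 1753672 in the nsRNA auxin libraries, against 9496247 and 11779971 in the nsRNA DMSO libraries. They were 7010247 and 7181104 in the total RNA auxin libraries, against 8275038 and 10543351 in the total RNA DMSO libraries. The normalised signal used below, as deposited, divides each library's raw counts by a single factor, and these factors set the absolute size of every change below. They were 1.44 and 1.45 for nsRNA after auxin against 0.669 and 0.720 after DMSO, and 1.15 and 1.04 for total RNA after auxin against 0.881 and 0.951 after DMSO. The alpha-cell genes MF(ALPHA)1, MF(ALPHA)2 and STE3 had 183 to 7576 counts per library, against 0 to 2 for the a-factor genes MFA1 and MFA2 and 8 to 96 for the a-cell genes BAR1 and STE2. SUA7 RNA fell by 3.64 in nsRNA and by 2.68 in total RNA on the log2 scale, which does not check the depletion of the protein.

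Newly synthesized RNA of all 10 cycle genes fell after auxin, with log2 changes of -4.75 to -3.61, which left 8.20% of the DMSO signal for KGD2 at one end and 3.71% for CIT1 at the other. Across all 5800 genes tested, 97.6% fell and 1.31% rose, so the count of 10 stands near the background. The median change was -4.18 for the 10 genes and -4.08 for all genes tested. In total RNA the same genes separated from each other. CIT1, IDH1, IDH2 and MDH1 fell by 1.88 to 2.22, LSC1 by 1.20, and ACO1, KGD1 and KGD2 by 0.52 to 0.65, while LSC2 and FUM1 did not pass the test.

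**Figure D1:**
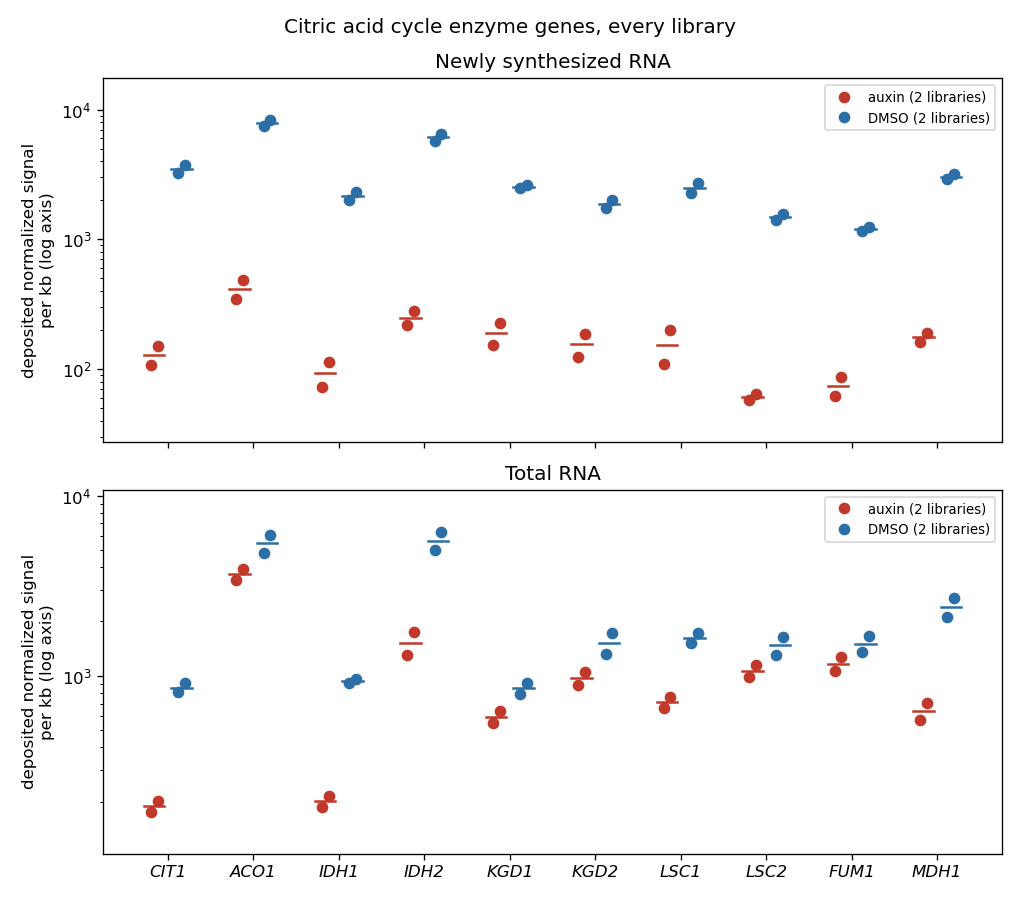
Normalised signal per kb of each of the 10 cycle genes in each library (log axis), nsRNA and total RNA in separate panels, with auxin libraries drawn left of DMSO libraries; points are single libraries and short lines their means. In every gene the auxin libraries sit below the DMSO libraries in both kinds of RNA, with a wide gap in nsRNA and gaps of very different width in total RNA.

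The changes were tested with edgeR's quasi-likelihood test on raw counts, with library sizes set by the deposited factors and Benjamini-Hochberg adjustment over all genes tested. A gene was called at an adjusted p under 0.05, and counts or shares of genes that fell or rose are those of called genes. The standard error (SE) given is the log2 change divided by the square root of the F statistic. Bulk RNA cannot tell fewer living cells from less RNA per cell.

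CIT1 (chrXIV:629622-631061) encodes the mitochondrial citrate synthase, which joins acetyl-CoA and oxaloacetate. Its nsRNA signal was 155 and 218 in the auxin libraries, against 4647 and 5388 in the DMSO libraries. Its total RNA signal was 253 and 289 in the auxin libraries, against 1163 and 1310 in the DMSO libraries. Neither pair of groups overlapped, as for the other 9 genes in both kinds of RNA; the same held for 97.8% of all genes in nsRNA and 93.9% in total RNA. CIT1 fell by 4.75 in nsRNA (SE 0.39), the largest fall of the 10, and by 2.19 in total RNA (SE 0.27, edgeR adjusted p = 4.09e-16).

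ACO1 (chrXII:735212-737548) encodes aconitase, the iron-sulphur enzyme that turns citrate into isocitrate, and it had the highest nsRNA level per kb of the 10. Its nsRNA signal was 804 and 1132 after auxin, against 17545 and 19318 after DMSO. In total RNA it was 7900 and 9158 after auxin, against 11187 and 14138 after DMSO. The nsRNA fell by 4.25 (SE 0.39), near the all-gene median, while 67.4% of the total RNA signal was left, a fall of 0.57 (SE 0.24, edgeR adjusted p = 0.0175).

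IDH1 (chrXIV:557920-559002) and IDH2 (chrXV:580250-581359) encode the subunits of NAD-dependent isocitrate dehydrogenase; Idh2 carries the catalytic site and Idh1 is regulatory. IDH1 nsRNA was 78.4 and 122 after auxin, against 2169 and 2508 after DMSO, and IDH2 nsRNA was 242 and 309 against 6370 and 7167. Both auxin libraries lay far below the DMSO libraries for each gene, with log2 changes of -4.54 (SE 0.38) for IDH1 and -4.62 (SE 0.39) for IDH2. In total RNA IDH1 had 202 and 234 after auxin, against 992 and 1040 after DMSO. IDH2 had 1449 and 1935 after auxin, against 5507 and 6963 after DMSO. IDH1 fell by 2.22 in total RNA (SE 0.26, edgeR adjusted p = 8.41e-17) and IDH2 by 1.88 (SE 0.26, edgeR adjusted p = 3.21e-13), so 21.5% and 27.1% of the signal was left.

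KGD1 (chrIX:122689-125733) and KGD2 (chrIV:753675-755066) encode 2 parts of the 2-oxoglutarate dehydrogenase complex, the decarboxylating E1 and the succinyl-transferring E2. KGD1 nsRNA was 468 and 686 after auxin, against 7507 and 8013 after DMSO, and KGD2 nsRNA was 173 and 258 against 2440 and 2818. Their falls of 3.75 (SE 0.38) and 3.61 (SE 0.37) were the smallest of the 10 in nsRNA. Total RNA of KGD1 was 1666 and 1945 after auxin, against 2396 and 2787 after DMSO. For KGD2 it was 1240 and 1468 after auxin, against 1843 and 2409 after DMSO. KGD1 fell by 0.52 (SE 0.25, edgeR adjusted p = 0.0433) and KGD2 by 0.65 (SE 0.25, edgeR adjusted p = 0.0119), with 69.7% and 63.7% left.

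LSC1 (chrXV:593057-594046) and LSC2 (chrVII:978036-979319) encode the alpha and beta subunits of succinyl-CoA ligase, the step of the cycle that makes ATP directly. LSC1 nsRNA was 107 and 196 after auxin, against 2247 and 2712 after DMSO, while LSC2 nsRNA was 74.2 and 82.9 against 1825 and 2004. LSC1 fell by 4.03 (SE 0.37) and LSC2 by 4.61 (SE 0.38) in nsRNA. In total RNA the order of these falls was the other way round. LSC1 had 654 and 752 after auxin, against 1510 and 1712 after DMSO, and fell by 1.20 (SE 0.26, edgeR adjusted p = 4.68e-06). LSC2 had 1264 and 1469 after auxin, against 1678 and 2105 after DMSO. Its log2 difference was -0.47 (95% interval -0.97 to 0.03, edgeR adjusted p = 0.0706), which did not pass the test.

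FUM1 (chrXVI:47336-48802) encodes fumarase, which hydrates fumarate to malate and is found in both mitochondria and cytosol, and MDH1 (chrXI:279123-280127) encodes the mitochondrial malate dehydrogenase that restores oxaloacetate. FUM1 nsRNA was 90.2 and 127 after auxin, against 1688 and 1837 after DMSO, a fall of 4.02 (SE 0.37). Its total RNA was 1566 and 1857 after auxin, against 1978 and 2446 after DMSO. That left 77.4%, the largest remainder of the 10, with a log2 difference of -0.37 (95% interval -0.87 to 0.13, edgeR adjusted p = 0.153). MDH1 nsRNA was 162 and 190 after auxin, against 2939 and 3182 after DMSO, and fell by 4.12 (SE 0.38). Its total RNA was 570 and 712 after auxin, against 2127 and 2714 after DMSO, a fall of 1.92 (SE 0.26, edgeR adjusted p = 6.35e-13). These neighbouring steps of the cycle thus kept 77.4% and 26.5% of their total RNA signal.

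Total RNA fell for 8 of the 10 genes, beside 90.3% of the 5479 genes tested that fell and 1.44% that rose. The 10 genes had a median log2 change of -0.92, against -2.34 for all genes tested. All 10 lay above the all-gene median and 6 lay above the upper quartile of -1.48. The calls of ACO1 and KGD1 were each lost when any 1 of the 4 total RNA libraries was left out, and that of KGD2 when either auxin library or DMSO replicate 2 was left out, so 5 or 6 genes then fell. In raw counts, before the deposited factors, FUM1 had 1804 and 1939 after auxin, against 1744 and 2325 after DMSO. LSC2 had 1456 and 1534 after auxin, against 1479 and 2001 after DMSO, so the groups of both genes overlapped.

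**Figure D2:**
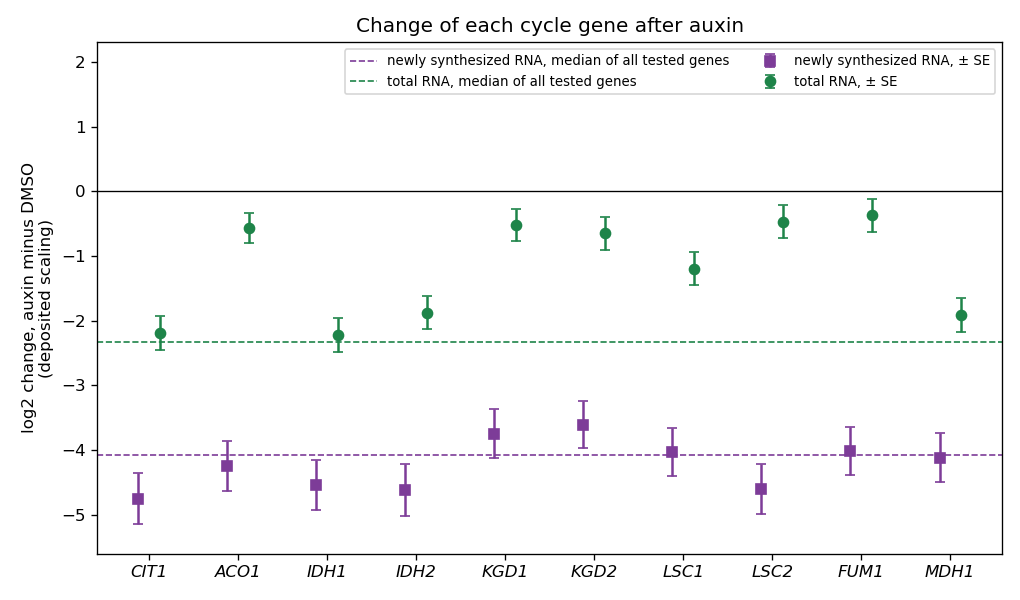
Log2 change (auxin over DMSO, deposited scaling) of each of the 10 genes in nsRNA and in total RNA, with SE as bars and the all-gene medians as dashed lines. The nsRNA changes lie between -4.75 and -3.61 around the all-gene median of -4.08, and the total RNA changes between -2.22 and -0.37, all above the all-gene median of -2.34.

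The 10 genes were also abundant, which moved with the total RNA result. By mean total RNA signal per kb over the 4 libraries they lay at percentiles 75.1 to 95.2 of all genes tested, with CIT1 lowest and ACO1 highest. Over 5479 genes the Spearman correlation of that level with the total RNA change was 0.35; it uses the same libraries for both measures and is a description. In nsRNA the corresponding correlation was 0.0038, with the 10 genes at percentiles 58.9 to 96.5. The part of level in the smaller total RNA falls was not tested.

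Levels can be compared between genes only per kb. In total RNA after auxin ACO1 led with a signal of 3649 ± 380 per kb (SD, n = 2), followed by IDH2 with 1524 ± 309, and CIT1, with 188 ± 17.6, and IDH1, with 201 ± 20.5, were lowest and overlapped each other. After DMSO IDH2 had 5617 ± 928 per kb and ACO1 5418 ± 893, and their libraries overlapped. MDH1 came next after DMSO, with 2408 ± 413, above both libraries of LSC1, KGD2, FUM1 and LSC2, which overlapped each other between 1307 and 1730. After auxin MDH1 had 638 ± 99.5 per kb and stood below FUM1, at 1167 ± 140, and LSC2, at 1064 ± 113, with no overlap. In nsRNA ACO1 led and IDH2 had the next highest mean in each treatment, overlapping KGD1 after auxin, with ACO1 at 414 ± 99.3 per kb after auxin and 7887 ± 536 after DMSO. FUM1 and LSC2 were the lowest pair in nsRNA, at 74.1 ± 17.8 and 61.2 ± 4.80 after auxin, against 1201 ± 72.1 and 1491 ± 98.5 after DMSO; IDH1 overlapped FUM1 after auxin.

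The falls in nsRNA and total RNA were compared in 1 model over all 8 libraries, as the total RNA change minus the nsRNA change. The model took the libraries as independent, although the labels number total RNA and nsRNA replicates alike and both may come from the same cultures. The difference was called above 0 (adjusted p under 0.05) in 10 of 10 genes. It was called above 0 in 78.1% of the 5885 genes tested and below 0 in 0.017%. The median difference was 2.89 for the 10 and 1.65 for all. LSC2 had the largest, 4.14, followed by ACO1 with 3.68 and FUM1 with 3.65. MDH1 and IDH1 had the smallest, 2.20 and 2.32, which still lay above the all-gene median. Relative to the typical gene (TMM factors, described next), the difference was called above 0 in 10 of 10 genes as well. Of all genes, 22.8% were called above 0 and 28.7% below 0. The medians were 1.05 for the 10 and -0.23 for all.

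**Figure D3:**
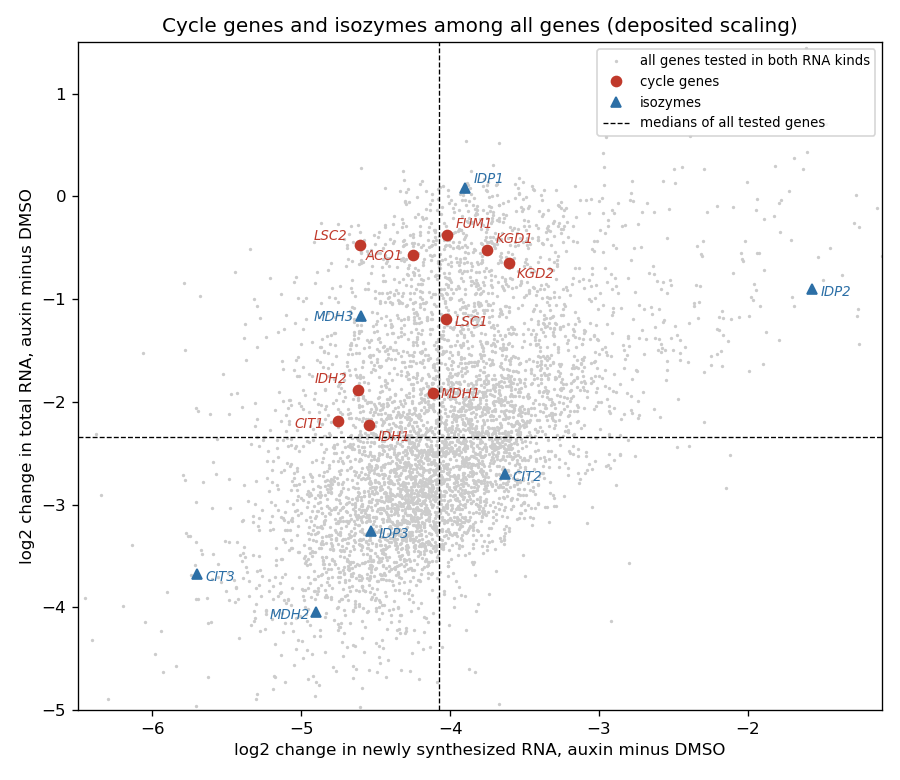
Log2 change in total RNA against log2 change in nsRNA (auxin over DMSO, deposited scaling) for the genes tested in both tables, with the 10 cycle genes and 7 isozymes marked and named and the all-gene medians as dashed lines; genes outside the plotted range are not drawn. The cycle genes spread along the total RNA axis, from -2.22 for IDH1, just above the all-gene median, to -0.37 for FUM1. Of the 10, 6 lie above the upper quartile of all tested genes on that axis.

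Nearly every gene fell on the deposited scaling, so changes relative to the typical gene were taken with TMM factors, which centre most genes near 0. In nsRNA 5 of the 10 genes then fell and 2 rose, beside 27.5% of the 5816 genes tested that fell and 29.6% that rose. CIT1 was lowest at -0.73, IDH2 stood at -0.59, LSC2 at -0.58, IDH1 at -0.52 and ACO1 at -0.23 (edgeR adjusted p = 0.0290). KGD2 rose by 0.42 and KGD1 by 0.27, and LSC1, FUM1 and MDH1 did not pass. ACO1 lost its call without auxin replicate 1 and without DMSO replicate 1, where its values were -0.20 and -0.18, and KGD1 lost its call without DMSO replicate 2, where its value was 0.19.

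Relative to the typical gene total RNA rose for 8 of 10 genes, beside 34.9% of the 5430 genes tested that rose and 38.1% that fell. The median was 1.30 for the 10 genes and -0.11 for all. FUM1 had 1.86, LSC2 1.76, KGD1 1.70, ACO1 1.66, KGD2 1.58 and LSC1 1.03. IDH2 and MDH1 rose by 0.34 and 0.31, and CIT1 and IDH1 did not pass, with 0.04 and 0.00. These 8 calls were made with each library left out in turn. The change of scaling moves all genes of the table by nearly the same amount, so it sets signs but not the order of the 10.

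Genes whose products form 1 enzyme were compared as raw count ratios within each library, which need no scaling factor. With 2 libraries against 2, the exact two-sided permutation test cannot go below p = 0.333. The LSC1 to LSC2 ratio in total RNA was 0.517 and 0.512 after auxin, against 0.900 and 0.814 after DMSO, a log2 difference of -0.73 (SE 0.07, exact permutation p = 0.333). In nsRNA the same ratio was 1.45 and 2.37 after auxin, against 1.23 and 1.35 after DMSO, a log2 difference of 0.52 (SE 0.36, exact permutation p = 0.333). So the groups did not overlap in either kind of RNA, and auxin libraries were low in total RNA and high in nsRNA. The nsRNA difference was 0.87 without auxin replicate 1 and 0.17 without auxin replicate 2, so its size rests on single libraries.

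The IDH1 to IDH2 ratio in total RNA was 0.140 and 0.121 after auxin, against 0.180 and 0.149 after DMSO (log2 difference -0.34, SE 0.17, exact permutation p = 0.333). In nsRNA it was 0.324 and 0.396 after auxin, against 0.341 and 0.350 after DMSO, and the groups overlapped (exact permutation p = 1). The KGD1 to KGD2 ratio in nsRNA was 2.70 and 2.66 after auxin, against 3.08 and 2.84 after DMSO. In total RNA it was 1.34 and 1.32 after auxin, against 1.30 and 1.16 after DMSO. Its log2 differences were -0.14 and 0.12, and the exact permutation p was 0.333 for each. Without DMSO replicate 1 the KGD1 to KGD2 differences were -0.085 in nsRNA and 0.21 in total RNA, and without DMSO replicate 2 the total RNA difference was 0.038. That of IDH1 to IDH2 in total RNA was -0.20 without DMSO replicate 1.

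**Figure D4:**
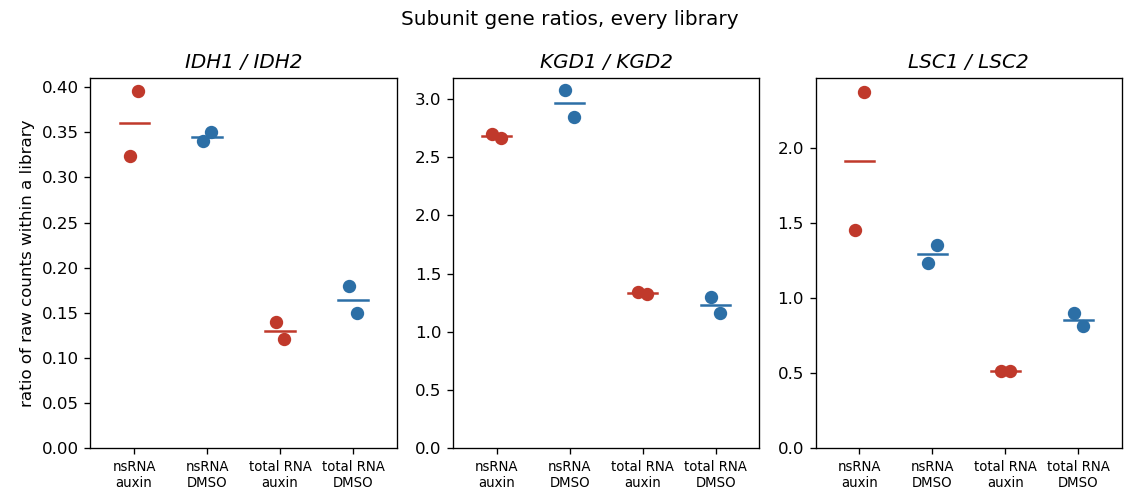
Raw count ratio of the subunit pairs IDH1 to IDH2, KGD1 to KGD2 and LSC1 to LSC2 in each library, by kind of RNA, with auxin libraries left of DMSO libraries; points are single libraries and short lines their means. The LSC1 to LSC2 ratio is near 0.51 in both auxin libraries and above 0.81 in both DMSO libraries of total RNA.

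Together the 10 genes held 0.263% and 0.274% of all counts in the nsRNA auxin libraries, against 0.348% and 0.336% in the nsRNA DMSO libraries. In total RNA they held 0.276% and 0.288% after auxin, against 0.324% and 0.339% after DMSO. The share was lower after auxin in both kinds of RNA with no overlap, by log2 differences of -0.35 and -0.23 (exact permutation p = 0.333 each, n = 2). It is a pooled value in which ACO1 weighs most. In total RNA ACO1 had 9102 and 9561 of the 19316 and 20692 pooled counts after auxin. After DMSO it had 9861 and 13441 of the 26780 and 35769. All counts include RNAs not made by RNA polymerase II; as shares of nuclear protein-coding counts, total RNA had 0.378% and 0.377% after auxin, against 0.395% and 0.411% after DMSO. The summed normalised signal of the 10 genes in total RNA was 16765 and 19819 after auxin, against 30380 and 37623 after DMSO.

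The ratio of nsRNA to total RNA signal in DMSO cells differed among the genes. It sets levels across tables that were normalised separately, so its scale is arbitrary and only the order is used. CIT1 had the highest ratio, 4.06, and FUM1 the lowest, 0.797. The median was 2.83 over the 3990 genes with a mean signal of at least 100 in both tables. KGD1, at 2.99, was the other gene of the 10 above that median. Over the 10 genes the ratio and the total RNA change had a Spearman correlation of -0.56 and a Pearson correlation of -0.43. These measures share the DMSO total RNA value, and the correlation is a description. IDH2 and MDH1, with low ratios of 1.09 and 1.26, fell by 1.88 and 1.92 in total RNA, so low ratios were not confined to genes with small falls. IDH1 and CIT1, which fell most in total RNA, had higher ratios than IDH2 and MDH1.

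The lists that follow hold other genes of the pathway. Other subunits and assembly factors of the cycle's enzymes fell in 10 of 10 cases in nsRNA and 10 of 10 in total RNA, with medians of -4.51 and -2.73, near the 97.6% and 90.3% of all genes that fell. LPD1 (YFL018C), the E3 of 2-oxoglutarate and pyruvate dehydrogenase, fell by 0.89 in total RNA, against 0.52 for KGD1 and 0.65 for KGD2. KGD4 (YFR049W), a small subunit that holds E3 in the 2-oxoglutarate dehydrogenase complex, fell by 2.44. SDH1 (YKL148C) and SDH2 (YLL041C), which carry the flavin and the iron-sulphur centres of succinate dehydrogenase, fell by 2.28 and 3.02. Its membrane anchors SDH3 (YKL141W) and SDH4 (YDR178W) fell by 2.19 and 2.04. The assembly factor genes SDH5 (YOL071W), SDH6 (YDR379C-A), SDH7 (YDR511W) and SDH8 (YBR269C) fell by 3.23 to 3.47. They had only 2 to 28 raw counts per total RNA library after auxin. Relative to the typical gene LPD1 rose in total RNA and 4 of the 10 fell, beside 38.1% of all genes that fell.

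Of the isozymes, enzymes that carry out a step of the cycle elsewhere or with another cofactor, 7 of 7 fell in nsRNA and 6 of 7 in total RNA, beside 97.6% and 90.3% of all genes. IDP1 (YDL066W), the mitochondrial NADP-dependent isocitrate dehydrogenase, fell by 3.90 in nsRNA. Its total RNA signal was 8436 and 9447 after auxin, against 7751 and 9159 after DMSO; the groups overlapped and the log2 difference was 0.08 (edgeR adjusted p = 0.745). IDP2 (YLR174W), the cytosolic form, fell by 1.57 in nsRNA, the least of the 7, and by 0.90 in total RNA. IDP3 (YNL009W), the peroxisomal form, fell by 3.26 in total RNA, where it had 19 and 12 raw counts after auxin. MDH2 (YOL126C), the cytosolic malate dehydrogenase, had 3 and 12 raw counts in total RNA after auxin, against 110 and 101 after DMSO. It fell by 4.05, against 1.92 for MDH1 and 1.16 for the peroxisomal MDH3 (YDL078C). CIT2 (YCR005C), the peroxisomal citrate synthase that the Rtg proteins activate, fell by 2.71 in total RNA, against 2.19 for CIT1. CIT3 (YPR001W), a second mitochondrial citrate synthase, fell by 3.68 (SE 0.58). It had 4 and 1 raw counts in total RNA after auxin, against 27 and 29 after DMSO. The sources used here do not say how reads shared by such paralogs were counted.

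Of the genes that link pyruvate and the cycle, in either direction, 7 of 7 fell in nsRNA and 3 of 7 in total RNA, beside 97.6% and 90.3% of all genes. Their total RNA median was -0.48, beside -0.92 for the 10 cycle genes and -2.34 for all genes. PDA1 (YER178W), PDB1 (YBR221C) and LAT1 (YNL071W), the E1 and E2 parts of pyruvate dehydrogenase, had log2 differences of -0.41, -0.48 and -0.45 and did not pass (edgeR adjusted p = 0.112, 0.0605 and 0.0735). PYC1 (YGL062W), a pyruvate carboxylase that supplies oxaloacetate, fell by 0.77, while its paralog PYC2 (YBR218C) had -0.32 and did not pass (edgeR adjusted p = 0.216). PDX1 (YGR193C), which anchors E3 in pyruvate dehydrogenase, fell by 2.31, and MAE1 (YKL029C), the mitochondrial malic enzyme, by 2.73. MAE1 had 3 and 2 raw counts in total RNA after auxin, against 10 and 19 after DMSO.

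Mitochondrial carriers of cycle acids fell in 6 of 6 tested cases in nsRNA and 5 of 6 in total RNA, beside 97.6% and 90.3% of all genes, at a median of -1.82 in total RNA. YHM2 (YMR241W), a citrate and 2-oxoglutarate carrier, had a log2 difference of -0.44 there and did not pass (edgeR adjusted p = 0.0887), and ODC2 (YOR222W), an oxodicarboxylate carrier, fell by 1.82. The seventh carrier, SFC1 (YJR095W), had 0 or 1 count per library and was not tested. Of the glyoxylate cycle genes, ICL1 (YER065C), isocitrate lyase, fell by 3.70 in nsRNA and by 2.28 in total RNA. ICL1 had 15 and 23 raw counts in total RNA after auxin, against 64 and 92 after DMSO. MLS1 (YNL117W), malate synthase, fell by 2.84 in nsRNA and was not tested in total RNA. It had 6 and 3 raw counts in nsRNA after auxin, against 12 and 20 after DMSO.

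Regulators of the cycle fell in 8 of 8 cases in each kind of RNA, near the 97.6% and 90.3% of all genes, at a median of -4.05 in nsRNA and -3.24 in total RNA. HAP4 (YKL109W), the limiting activator of the Hap complex, fell by 3.02 in total RNA. HAP2 (YGL237C), HAP3 (YBL021C) and HAP5 (YOR358W), which bind DNA, had log2 changes of -4.10, -4.54 and -3.50. These 3 genes had only 1 to 15 raw counts per total RNA library after auxin. RTG1 (YOL067C) and RTG3 (YBL103C), the paired transcription factors of the retrograde response, had log2 changes of -3.35 and -3.13. Their raw counts in total RNA after auxin were low, 24 and 20 for RTG1 and 13 and 13 for RTG3. RTG2 (YGL252C), which activates Rtg1 and Rtg3, had a log2 change of -2.53. MKS1 (YNL076W), which holds the retrograde response back, fell by 0.87. Relative to the typical gene it was the 1 regulator whose total RNA rose, and the other 7 fell. Of all genes, 34.9% rose and 38.1% fell in total RNA on that scale. In nsRNA RTG2, RTG3 and MKS1 rose on that scale and 2 of the 8 fell, beside 29.6% and 27.5% of all genes.

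**Figure D5:**
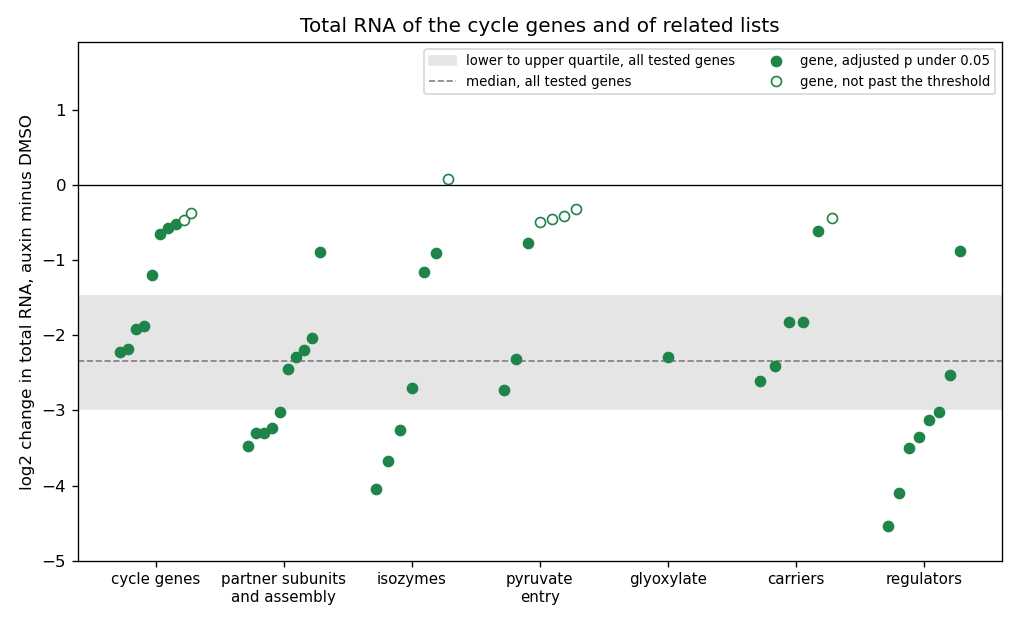
Total RNA log2 change (auxin over DMSO, deposited scaling) of each gene in the cycle, partner, isozyme, pyruvate, glyoxylate, carrier and regulator lists, 1 point per tested gene (filled where the adjusted p was under 0.05), with the all-gene median as a dashed line and the all-gene quartiles as a grey band. The medians of the cycle genes (-0.92), the pyruvate genes (-0.48) and the carriers (-1.82) lie above the line at -2.34. The 1 tested glyoxylate gene (-2.28) lies just above it. The medians of the partners (-2.73), the isozymes (-2.71) and the regulators (-3.24) lie below it.

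The genes most like the cycle genes were found by Euclidean distance, over all 8 libraries, to the median profile of the 10 (log2 signal centred on each gene's DMSO mean within its table). Among 3980 other genes with a mean signal of at least 100 in both tables, the nearest 5 were VTC2 (YFL004W), CWH41 (YGL027C), SSA2 (YLL024C), YDR510W and HXK2 (YGL253W). They encode a subunit of the vacuolar transporter chaperone, a glucosidase of the endoplasmic reticulum, an Hsp70, a SUMO family protein and hexokinase 2. Their distances were 0.128 to 0.179, their nsRNA changes -4.32 to -4.19 and their total RNA changes -0.999 to -0.933. The cycle genes themselves ranked from 141 for ACO1 to 1687 for CIT1 among 3990 genes, so each lay farther from the common profile than these 5.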

How the data were processed

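Per the labels, ribosomal RNA was depleted and stranded TruSeq libraries were made from the RNA of S. cerevisiae mixed with S. pombe cells. Build sacCer3 and bcl2fastq 2.17.1.14 are named in the submitters' processing notes; the sources used here name no aligner or counter and do not say whether counting used strand. Per the file headers, the authors deposited an unnormalised count for every gene, a normalised signal and that signal per kb of transcript. Raw over normalised values were constant within a library, which gave its factor; the sources used here do not say how the authors chose it, and no S. pombe count was used. Log2 fold changes with p-values in the tables come from the authors' tests, and the authors' deposited table had adjusted p-values under 0.05 for 10 of the 10 genes in nsRNA and 9 in total RNA.

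Counts were tested with edgeR 4.0.16 in R 4.3.3 (glmQLFit and glmQLFTest) after filterByExpr with a minimum count of 10, each table alone, with library sizes set by the deposited factors or by TMM. DESeq2 1.42.0 was an alternative. The comparison of total RNA with nsRNA used an interaction term over all 8 libraries. Tests were run on simulated data first. Subunit ratios and shares used exact permutation tests, which cover the 2 libraries a group only. Levels were centred with a pseudocount of 0.5 for the likeness search. Alternatives were another scaling, DESeq2, other filters, 1 fit over all 8 libraries, a replicate block and each library left out.

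The 10 genes and all other lists were chosen with earlier results of these data known. All 10 cycle genes were named; partners, isozymes and regulators were named when tested, and of other lists the 2 most abundant and any whose call differed; 1 further isozyme is not reported here and is left out of the isozyme counts. Of the 51 list genes, 14 carry a symbol in the files, 3 of them among the 10; other symbols are the standard names of the identifiers. IDH2 overlaps YOR135C, which had 0 to 2 counts per library. Sequences are not shown here.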

Additional observations from a re-analysis of the deposited data

Results flagged for a closer look

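The change after auxin differed between total RNA and nsRNA in each of the 10 cycle genes, by an edgeR interaction test over all 8 libraries (total RNA change minus nsRNA change, log2 scale). On the deposited scaling the differences were 2.56 for CIT1, 3.68 for ACO1, 2.32 for IDH1, 2.74 for IDH2 and 3.23 for KGD1. For the later steps they were 2.96 for KGD2, 2.83 for LSC1, 4.14 for LSC2, 3.65 for FUM1 and 2.20 for MDH1. This scaling gave such a difference for 78.1% of all genes.

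Relative to the typical gene (TMM), the differences were 0.71 for CIT1, 1.84 for ACO1, 0.47 for IDH1, 0.88 for IDH2 and 1.39 for KGD1. They were 1.11 for KGD2, 0.99 for LSC1, 2.29 for LSC2, 1.80 for FUM1 and 0.35 for MDH1. All 10 passed the threshold in the same direction, beside 22.8% of the 5951 genes tested, and the medians were 1.05 for the 10 genes and -0.23 for all. The call of MDH1 (edgeR adjusted p = 0.0190) was lost without nsRNA auxin replicate 2 (0.23), without nsRNA DMSO replicate 1 (0.28), without total RNA auxin replicate 2 (0.29) and without total RNA DMSO replicate 1 (0.29), and with DESeq2 (0.35, adjusted p = 0.0585).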

How the results depend on the processing

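Scaling sets the sign of many changes, since it moves all genes of a table nearly alike: the median of all genes in total RNA was -0.11 with TMM and -2.34 with the deposited factors. With TMM factors in place of the deposited ones, nsRNA had 5 of the 10 genes lower and 2 higher, and total RNA had 0 lower and 8 higher; median-of-ratios factors gave 4 and 2 in nsRNA and 0 and 8 in total RNA. In nsRNA the sign turned with TMM factors for KGD1 (0.27), KGD2 (0.42) and FUM1 (0.0053), and with median-of-ratios factors for KGD1 (0.29), KGD2 (0.44), LSC1 (0.017) and FUM1 (0.030). In total RNA the values with TMM were 0.037 (CIT1), 1.66 (ACO1), 0.0014 (IDH1), 0.34 (IDH2), 1.70 (KGD1), 1.58 (KGD2), 1.03 (LSC1), 1.76 (LSC2), 1.86 (FUM1) and 0.31 (MDH1), of which CIT1 and IDH1 did not pass the test. With median-of-ratios factors these were 0.13, 1.76, 0.10, 0.44, 1.80, 1.68, 1.12, 1.86, 1.95 and 0.41 in the same order. Over all genes, the fewer genes called higher on the deposited scaling were 76 in nsRNA, against 32 with DESeq2, 123 with no filter and 11 under a 50-count filter, and 79 in total RNA, against 169 with no filter, 20 under that filter, 123 with the replicate block and 136 in the joint fit of all 8 libraries. Relative to the typical gene, 1598 genes were lower in nsRNA, against 1028 with DESeq2.

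Values near 0 relative to the typical gene changed sign in nsRNA for LSC1 when genes averaged 50 counts or more (0.032), and for FUM1 with no filter (-0.033) and in 1 fit of all 8 libraries (-0.0040). In total RNA they did so for CIT1 with no filter (-0.065) and in the joint fit (-0.021), and for IDH1 with DESeq2 (-5.77e-04), with no filter (-0.10), under the 50-count filter (-0.011) and in the joint fit (-0.056). None of these genes was called there, and the cause was not tested.

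With 1 library left out, 5 to 6 genes were lower in total RNA (8 with all libraries), and relative to the typical gene 1 to 2 were higher in nsRNA. The IDH1 to IDH2 log2 ratio in nsRNA lay between -0.092 and 0.20. Ranges that crossed 0 were -0.27 to 0.17 for LSC1, -0.057 to 0.063 for FUM1 and -0.18 to 0.022 for MDH1 in nsRNA, and -0.019 to 0.059 for CIT1 and -0.11 to 0.074 for IDH1 in total RNA, all relative to the typical gene.

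Deviations of same-numbered auxin and DMSO libraries correlated over genes at -0.06 in nsRNA and 0.06 in total RNA. Those of same-numbered nsRNA and total RNA libraries correlated at 0.05 after auxin and 0.07 after DMSO. Such a correlation cannot see an offset shared by all genes. The median of the centred log2 signal, over the genes of the likeness search, was higher in replicate 2 than in replicate 1 in all 4 groups. After auxin it was -3.86 against -4.30 in nsRNA and -2.13 against -2.42 in total RNA. Whether replicate numbers pair the libraries was therefore not settled. With the replicate block, all 10 genes were lower in total RNA, with LSC2 at -0.46 and FUM1 at -0.37, and ACO1 lost its call relative to the typical gene in nsRNA (edgeR adjusted p = 0.0659). KGD1 missed the threshold in total RNA with no filter and in the joint fit (edgeR adjusted p = 0.0502 and 0.0503), and LSC2 passed with DESeq2 (adjusted p = 0.0204). Under the alternatives, 603 single-gene values kept their direction and side of the threshold. Another 45 reversed direction, 28 lost their call and 4 gained one. Of the counts, ratios and shares, 171 held, counts within 1.5 times and ratios and shares in direction. The rest were 12 counts that moved farther and 1 reversed direction. The lowest raw count among the 10 genes was 107, for LSC2 in an nsRNA auxin library.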
